A study of Homo sapiens with 12 samples.

Results

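Glycolysis and the control of pyruvate were described here through 32 genes, out of 60662 genes in the expression table, picked by gene symbol for their place in the pathway. They cover glucose and lactate transport, the glycolytic enzymes, the PFKFB and TIGAR enzymes that set fructose 2,6-bisphosphate, and pyruvate dehydrogenase with its kinases. NCI-H295R, a human adrenocortical carcinoma line that makes cortisol, was kept without serum for 12 h in every group and then treated for 24 h. The groups were vehicle (VEH, 0.1% DMSO), 30 µM CJ28, a benzimidazolylurea compound that lowers cortisol output, and 30 µM metyrapone (MET), an inhibitor of 11β-hydroxylase, the last enzyme of cortisol synthesis. Each group had 4 samples of 1 cell line, and the sources used here do not say whether the 4 came from separate cultures, so the p-values measure the spread between these samples. RNA-seq of total RNA depleted of ribosomal RNA gave TPM, a transcript level per length in which each sample sums to the same total.

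Glycolysis splits glucose into pyruvate in the cytosol, and its pace is held mainly at glucose uptake, hexokinase, phosphofructokinase and pyruvate kinase. Fructose 2,6-bisphosphate, made and broken down by the PFKFB enzymes, activates phosphofructokinase. Pyruvate is either reduced to lactate by lactate dehydrogenase and exported, or taken into mitochondria and turned into acetyl-CoA by the pyruvate dehydrogenase complex, which the PDK kinases switch off. In steroid-making cells mitochondria also house the first and last steps of cortisol synthesis, which draw on NADPH. Several steps are served by isozymes from separate genes. A change of isozyme can then be read from the share of each gene in its family.

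The line matched its label, with 7 of 8 adrenocortical marker genes expressed above the filter in these samples, among them NR5A1 at 45.2 to 49.5 TPM in VEH, while MRAP stayed at or below 0.46 TPM. HSD3B2 and MC2R were low, at 0.76 to 0.97 and 0.81 to 1.17 TPM in VEH, close to the level of CHGA given below. All 7 of the expressed markers were lower in CJ28 than in VEH (log2 fold change -2.35 to -0.69), and the part of this change in the results given here was not tested. HSD3B2, at 0.13 to 0.23 TPM in CJ28, passed the filter only through VEH and MET, and MC2R, at 0.22 to 0.55 TPM in CJ28, mostly so. The filter thus had a part in the direction of these markers. Markers of leukocytes (PTPRC, at most 0.06 TPM), endothelium (PECAM1, at most 0.05 TPM) and fibroblasts (PDGFRA, at most 0.08 TPM) were near 0. COL1A1 of fibroblasts reached at most 0.85 TPM, CHGA of adrenal medulla was at 0.44 to 1.17 TPM and TH of the medulla was listed at 0 in all 12 samples. Between 29463 and 31016 genes had a TPM above 0 per sample. TPM carries no read number, so the depth behind a value is unknown from the table, and no counting interval was given. In CJ28, nuclear protein-coding genes held 21.3 to 21.4% of all TPM against 24.3 to 24.8% in VEH and 24.1 to 24.6% in MET, and the median gene had a log2 fold change of -0.13 between CJ28 and VEH. Changes are therefore also given relative to that median. Errors beside TPM, shares and ratios are SD with n = 4, and those beside log2 fold changes are SE. In bulk RNA, fewer cells of a kind and less RNA per cell cannot be told apart.

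On the TPM scale, CJ28 lowered most of the pathway and raised 8 of its genes, whereas MET changed none of its genes past the threshold. Of the 31 members that passed the expression filter, 28 differed between CJ28 and VEH (limma on log2 of TPM + 0.1, adjusted p under 0.05 over 16815 genes), where 57.0% of all genes did. The 20 that fell reached from glucose uptake to lactate export and included aldolases, triose phosphate isomerase, pyruvate kinase, LDHA and, on the TPM scale but not under every scaling, LDHB, against 37.1% of all genes called lower. The 8 that rose, against 19.9% of all genes called higher, were the glucose transporter SLC2A3, the phosphofructokinases PFKM and PFKP, the enolases ENO2 and ENO3, PFKFB2, PDK4 and PDHA1. HK1, HK2 and TIGAR did not pass the test, and SLC16A3 was too low to be tested. The median log2 fold change of the 31 was -0.32, compared with -0.13 for all genes. In 26 of the 31 the CJ28 and VEH samples did not overlap, where 50.3% of all genes did not overlap.

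These calls depended in part on how the samples were scaled. When the samples were put on a common scale by the median ratio of all genes, 26 of the 31 were called, 17 lower and 9 higher. Of all 16815 genes, 9355 were called there, 4430 lower and 4925 higher, so the split of all called genes moved from 65.1% to 47.4% lower. With TPM recomputed over nuclear protein-coding genes alone, 23 of 30 were called, 14 lower and 9 higher. Of all 12506 genes in that setting, 8201 were called, 3294 lower and 4907 higher, so 40.2% of all called genes were lower. The medians of the members were then -0.16 against 0.01 for all genes, and -0.13 against 0.09. LDHB is filed as a polymorphic pseudogene in the table and drops out of that last setting. Members whose call against VEH moved, or whose sign turned while called in TPM, are named with their values in the paragraphs on their step. HK2 and TIGAR, called under none of these scalings, also turned in sign. From -0.077 and -0.060 in TPM they went to 0.062 and 0.089 after median-of-ratios scaling. Over protein-coding genes alone they stood at 0.12 and 0.14.

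**Figure D1:**
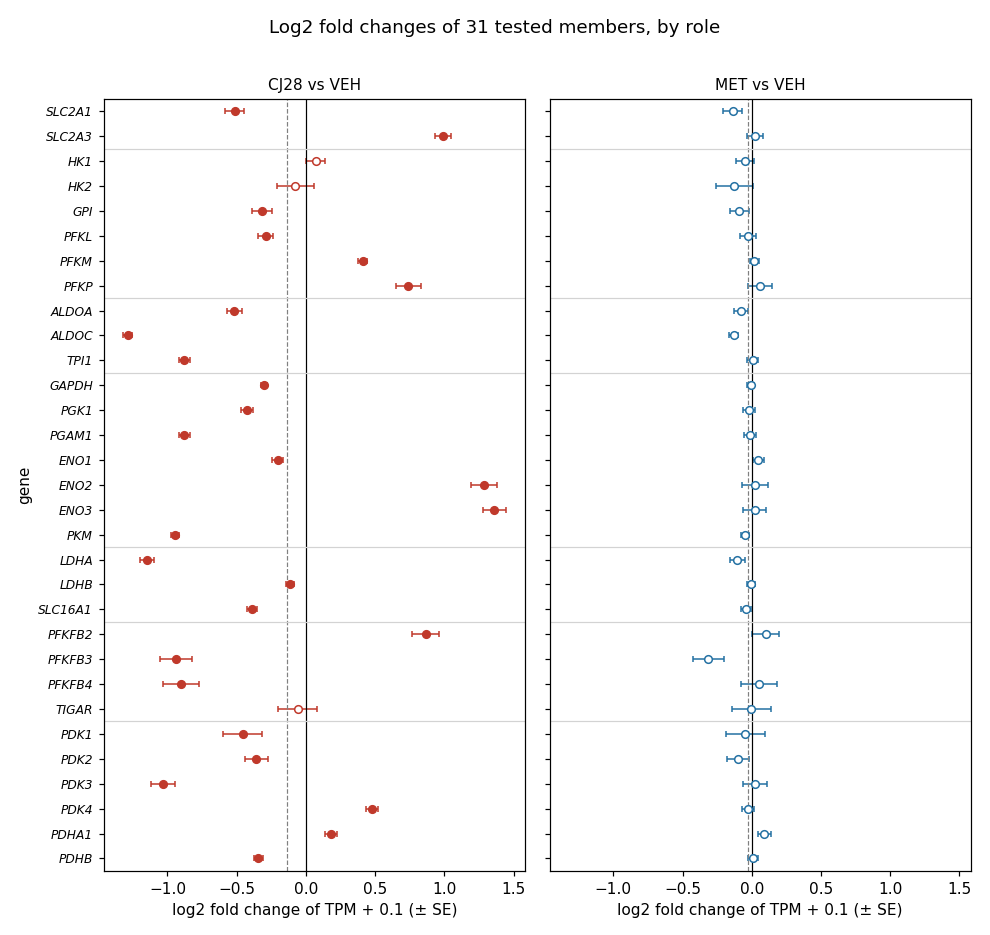
Log2 fold change of TPM + 0.1 with its standard error for the 31 tested members, CJ28 against VEH on the left and MET against VEH on the right, ordered by role with grey lines between roles. Filled points passed an adjusted p under 0.05 in limma, open points did not, and the dashed line is the median of all genes (-0.13 and -0.03). In CJ28, ENO3 at 1.36 and ALDOC at -1.29 mark the ends of the range, while every MET point is open.

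Stretches upstream of 4 members are shown for a short motif that lies there in some genes of the pathway and not in others. ACGTG is the core of the site bound by hypoxia-inducible factors, and CACGTG, the E-box read by MYC and by the glucose-sensing ChREBP and MondoA proteins, contains it on both strands. The windows are the 250 bases before a RefSeq start site (GRCh38.p14), found for 29 of 32 members, and bases inside an annotated exon are left off. In the lines that follow, read 5′ to 3′ on the strand of the gene, capitals mark each CACGTG or CACGT, the latter being ACGTG on the other strand.
LDHA, lactate dehydrogenase A (chr11:18394313-18394559, plus strand): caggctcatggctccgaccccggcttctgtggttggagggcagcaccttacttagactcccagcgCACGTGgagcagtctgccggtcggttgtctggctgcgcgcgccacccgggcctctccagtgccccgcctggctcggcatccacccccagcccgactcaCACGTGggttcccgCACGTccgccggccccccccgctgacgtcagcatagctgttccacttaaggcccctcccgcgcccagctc
ALDOC, aldolase C (chr17:28576949-28577145, minus strand): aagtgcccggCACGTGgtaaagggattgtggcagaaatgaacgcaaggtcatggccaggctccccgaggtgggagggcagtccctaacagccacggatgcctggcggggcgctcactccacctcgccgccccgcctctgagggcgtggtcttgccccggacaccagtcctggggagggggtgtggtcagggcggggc
PFKP, phosphofructokinase P (chr10:3067720-3067969, plus strand): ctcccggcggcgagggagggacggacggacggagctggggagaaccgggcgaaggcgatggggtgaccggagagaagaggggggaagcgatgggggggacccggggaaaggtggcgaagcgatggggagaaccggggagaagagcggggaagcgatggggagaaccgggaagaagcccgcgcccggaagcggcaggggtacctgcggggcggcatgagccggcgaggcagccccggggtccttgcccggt
PDK4, pyruvate dehydrogenase kinase 4 (chr7:95596517-95596669, minus strand): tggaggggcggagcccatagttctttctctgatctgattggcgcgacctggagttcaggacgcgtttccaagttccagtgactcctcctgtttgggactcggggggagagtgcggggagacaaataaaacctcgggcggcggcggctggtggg
The printed LDHA stretch held 5 matches to ACGTG counted over both strands, 4 of them within its 2 copies of CACGTG, and that of ALDOC held 2, both within 1 CACGTG. No match lay in the printed stretches of PFKP and PDK4. PFKP has 4 windows, however, and another of them (chr10:3068939-3069238) held 1 ACGTG, so PFKP counts among the members with the motif. In CJ28, LDHA and ALDOC fell and PFKP and PDK4 rose, as given with their steps. These 4 are examples, and other members went the other way. The first windows listed for PKM, TPI1 and PGAM1, which fell, held 0 matches to ACGTG, and that of ENO2, which rose, held 1. A tie between motif and direction was not tested.

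Over all windows of a gene, ACGTG was found upstream of 18 of 29 members (62.1%), compared with 21.7% of the 27305 genes in the promoter table and 29% of the 10567 tested genes that have a window. Members with several start sites have several chances of a match. By single windows the shares were 36.2% of 58 member windows and 18.5% of all 35116. CACGTG was found upstream of 8 members (27.6%), against 7.73% of all genes and 11.3% of the tested genes, and in 13.8% of member windows against 6.34% of all. ACGTG was present for 12 of 19 members that fell and 3 of 6 that rose (ENO2, PFKM and PFKP), and CACGTG for 7 of 19 and 0 of 6. GCGTG, the other form of the hypoxia site, was found for 17 of 29 members (58.6%), 36.2% of all genes and 52.7% of the tested genes. By single windows its shares lay close together, at 32.8% of member windows and 32.2% of all. TGATGNAAT, a form of the site bound by ATF4, was found for 1 member and 1.09% of all genes. A match describes letters only and says nothing on binding.

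The glucose transporters moved in opposite directions. SLC2A1 (ENSG00000117394.23, chromosome 1, 42925375 to 42958868), the basal transporter GLUT1, stood at 29.6, 29.6, 27.5 and 32.3 TPM in VEH, 20.0, 20.5, 18.8 and 24.1 in CJ28 and 26.2, 27.6, 25.7 and 28.5 in MET. All 4 CJ28 samples were below every VEH and MET sample, CJ28-4 being the nearest to them. It fell by 30.0% in mean TPM, a log2 fold change of -0.52 ± 0.071 (SE), or -0.38 relative to the median gene (limma adjusted p = 5.19e-05). SLC2A3 (ENSG00000059804.16, chromosome 12, 7919230 to 7936187), the high-affinity transporter GLUT3, stood at 10.9, 10.6, 11.7 and 10.8 TPM in VEH, 20.3, 22.0, 23.2 and 22.4 in CJ28 and 11.3, 10.6, 12.2 and 10.6 in MET. CJ28 samples lay well above the others, and VEH and MET overlapped. It rose by 99.9% in mean TPM, with a log2 fold change of 0.99 ± 0.058 (1.13 relative to the median gene, limma adjusted p = 1.79e-08).

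SLC2A3 shares most of its sequence with its neighbour SLC2A14, and reads may be split between them. SLC2A14, picked out after its values were seen, stood at 2.91, 3.21, 2.76 and 3.68 TPM in VEH, 6.39, 7.04, 6.57 and 7.08 in CJ28 and 3.29, 3.03, 3.15 and 2.52 in MET. It was higher in every CJ28 sample too, and the sum of both genes had a log2 fold change of 1.02 ± 0.05 (limma adjusted p = 6.95e-09). Reads of 3 pseudogenes came to at most 9.87% of the summed TPM with SLC2A3, and for each other member its pseudogenes came to at most 1.71%. Of the TPM of SLC2A1 and SLC2A3 together, SLC2A1 made up 73.0, 73.7, 70.2 and 75.0% in VEH, 49.7, 48.2, 44.7 and 51.8% in CJ28 and 69.8, 72.3, 67.9 and 72.9% in MET. Every CJ28 sample was below the VEH and MET range, near an even mix of both transporters. With SLC2A14 counted in, the range of that share was 65.6 to 69.1% in VEH and 38.7 to 44.9% in CJ28.

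Among the entry enzymes, hexokinase mRNA did not pass the test while the phosphofructokinase isozymes parted. HK1, the housekeeping hexokinase, had 12.0 ± 0.734 TPM with VEH, 12.6 ± 1.09 TPM with CJ28 and 11.5 ± 0.542 TPM with MET (SD, n = 4), and HK2, the inducible form, 1.05 ± 0.208 TPM with VEH, 0.978 ± 0.0838 TPM with CJ28 and 0.940 ± 0.0383 TPM with MET. Their log2 fold changes in CJ28 were 0.069 ± 0.066 and -0.077 ± 0.13 (limma adjusted p = 0.397 and 0.645). After median-of-ratios scaling HK1 stood at 0.22 and passed the test (limma adjusted p = 0.00475), and with protein-coding genes only at 0.27, so the lack of a call for HK1 depends on the scale. GPI, glucose-6-phosphate isomerase, fell from 119 ± 8.17 to 95.7 ± 10.7 TPM (-0.32 ± 0.07, limma adjusted p = 0.00196), a call that did not hold over protein-coding genes alone (-0.11, limma adjusted p = 0.145).

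Phosphofructokinase commits sugar to glycolysis, and its subunits PFKL, PFKM and PFKP, known as the liver, muscle and platelet forms, combine into tetramers. PFKP (ENSG00000067057.17, chromosome 10, 3066333 to 3137718) stood at 11.0, 12.4, 10.6 and 13.2 TPM in VEH, 20.0, 19.2, 20.3 and 19.4 in CJ28 and 14.5, 10.9, 12.5 and 11.4 in MET. All CJ28 samples were above all others, and the highest of the rest was MET-1. It rose by 67.1% in mean TPM (log2 fold change 0.74 ± 0.087, 0.87 relative to the median gene, limma adjusted p = 1.25e-05). PFKM, the most abundant of the family, rose from 29.7 ± 0.930 to 39.5 ± 0.541 TPM (0.41 on the log2 scale, limma adjusted p = 2.25e-07), and PFKL fell from 9.79 ± 0.573 to 7.99 ± 0.458 TPM (-0.29, limma adjusted p = 6.54e-04). The fall of PFKL did not pass over protein-coding genes alone (-0.09, limma adjusted p = 0.199). In family shares, PFKL took 19.1 ± 1.00% in VEH and 11.9 ± 0.745% in CJ28 and PFKP took 23.0 ± 1.31% in VEH and 29.4 ± 0.565% in CJ28, with no overlap in either, while PFKM took 57.9 ± 1.38% in VEH and 58.7 ± 0.404% in CJ28 and its samples overlapped.

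Aldolase and triose phosphate isomerase, which cut the sugar and interconvert the triose phosphates, fell in all 3 genes. ALDOA (ENSG00000149925.20, chromosome 16, 30064164 to 30070457), the main aldolase here, stood at 211, 188, 180.1 and 197 TPM in VEH, 131, 137, 127 and 147 in CJ28 and 187, 184, 184 and 181 in MET. The highest CJ28 sample was below the lowest of VEH and MET. It fell by 30.1% in mean TPM, with a log2 fold change of -0.52 ± 0.051 (-0.38 relative to the median gene, limma adjusted p = 2.72e-06). ALDOC (ENSG00000109107.14, chromosome 17, 28573115 to 28576948), a form best known from brain, stood at 25.1, 24.2, 23.9 and 24.8 TPM in VEH, 9.94, 10.1, 10.3 and 9.60 in CJ28 and 22.3, 22.2, 21.9 and 23.1 in MET. The 3 groups did not overlap, with CJ28 far below and MET slightly below VEH. Its fall of 59.3% (log2 fold change -1.29 ± 0.035, -1.154 relative to the median gene, limma adjusted p = 1.84e-11) marked the low end of the 31 members. TPI1 (ENSG00000111669.15, chromosome 12, 6867119 to 6870948), triose phosphate isomerase, stood at 503, 471, 456 and 464 TPM in VEH, 245, 252, 272 and 262 in CJ28 and 482, 471, 462 and 486 in MET. CJ28 samples were all far below the others, which overlapped. TPI1 fell by 45.6% (-0.88 ± 0.039 on the log2 scale, -0.74 relative to the median gene, limma adjusted p = 1.62e-09).

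In lower glycolysis the abundant enzymes fell in TPM and the scarce enolases rose. GAPDH, the most abundant member and a common reference gene, fell from 1148 ± 21.5 to 931 ± 11.5 TPM (-0.30 ± 0.024 on the log2 scale, limma adjusted p = 3.91e-07) and stayed called at -0.15 and -0.097 under the other scalings. PGK1, which makes the first ATP of the pathway, fell from 84.6 ± 4.95 to 62.8 ± 2.42 TPM (-0.43 ± 0.043, limma adjusted p = 3.28e-06). PGAM1 (ENSG00000171314.9, chromosome 10, 97426191 to 97433444), phosphoglycerate mutase, stood at 88.0, 84.9, 84.5 and 82.1 TPM in VEH, 46.5, 45.7, 49.6 and 42.9 in CJ28 and 86.1, 82.8, 82.8 and 84.7 in MET. Every CJ28 sample was far below every other sample. It fell by 45.6%, with a log2 fold change of -0.88 ± 0.041 (-0.74 relative to the median gene, limma adjusted p = 2.27e-09). PKM (ENSG00000067225.18, chromosome 15, 72199029 to 72231822), pyruvate kinase, stood at 605, 564, 597 and 596 TPM in VEH, 305, 307, 307 and 309 in CJ28 and 568, 589, 552 and 580.1 in MET. The CJ28 samples were close together, with an SD of 1.90 TPM, and far below the rest. PKM fell by 48.0% (log2 fold change -0.94 ± 0.029, -0.81 relative to the median gene, limma adjusted p = 5.56e-11). The values do not separate the M1 and M2 splice forms of PKM.

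Enolase, which makes phosphoenolpyruvate, is encoded by ENO1 in most tissues, ENO2 in neurons and ENO3 in muscle. ENO1 fell from 94.5 ± 4.05 to 82.0 ± 2.65 TPM (-0.20 ± 0.04, limma adjusted p = 7.92e-04), but its log2 fold change was -0.05 after median-of-ratios scaling (limma adjusted p = 0.379) and 0.00098 over protein-coding genes alone, so its direction rests on the scale. ENO2 (ENSG00000111674.9, chromosome 12, 6913745 to 6923698) stood at 1.63, 1.46, 1.36 and 1.63 TPM in VEH, 3.76, 4.07, 3.65 and 3.90 in CJ28 and 1.68, 1.47, 1.73 and 1.33 in MET. CJ28 samples were all above the others, at low levels throughout. It rose by 153% in mean TPM (log2 fold change 1.29 ± 0.095, 1.42 relative to the median gene, limma adjusted p = 1.69e-07). ENO3 (ENSG00000108515.17, chromosome 17, 4948092 to 4957131) stood at 6.71, 5.06, 5.65 and 6.29 TPM in VEH, 14.5, 16.4, 14.1 and 16.4 in CJ28 and 6.04, 5.79, 6.04 and 6.05 in MET. Every CJ28 sample was above every other sample by a wide gap, and MET lay inside the VEH range. ENO3 rose by 159% in mean TPM, with a log2 fold change of 1.36 ± 0.082 (1.495 relative to the median gene, limma adjusted p = 2.42e-08). In the enolase family ENO3 took 6.38, 5.25, 5.68 and 5.90% in VEH, 14.8, 16.01, 13.6 and 16.2% in CJ28 and 5.45, 5.70, 5.87 and 5.76% in MET. The CJ28 samples did not overlap the others, and ENO1 still held most of the family.

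**Figure D2:**
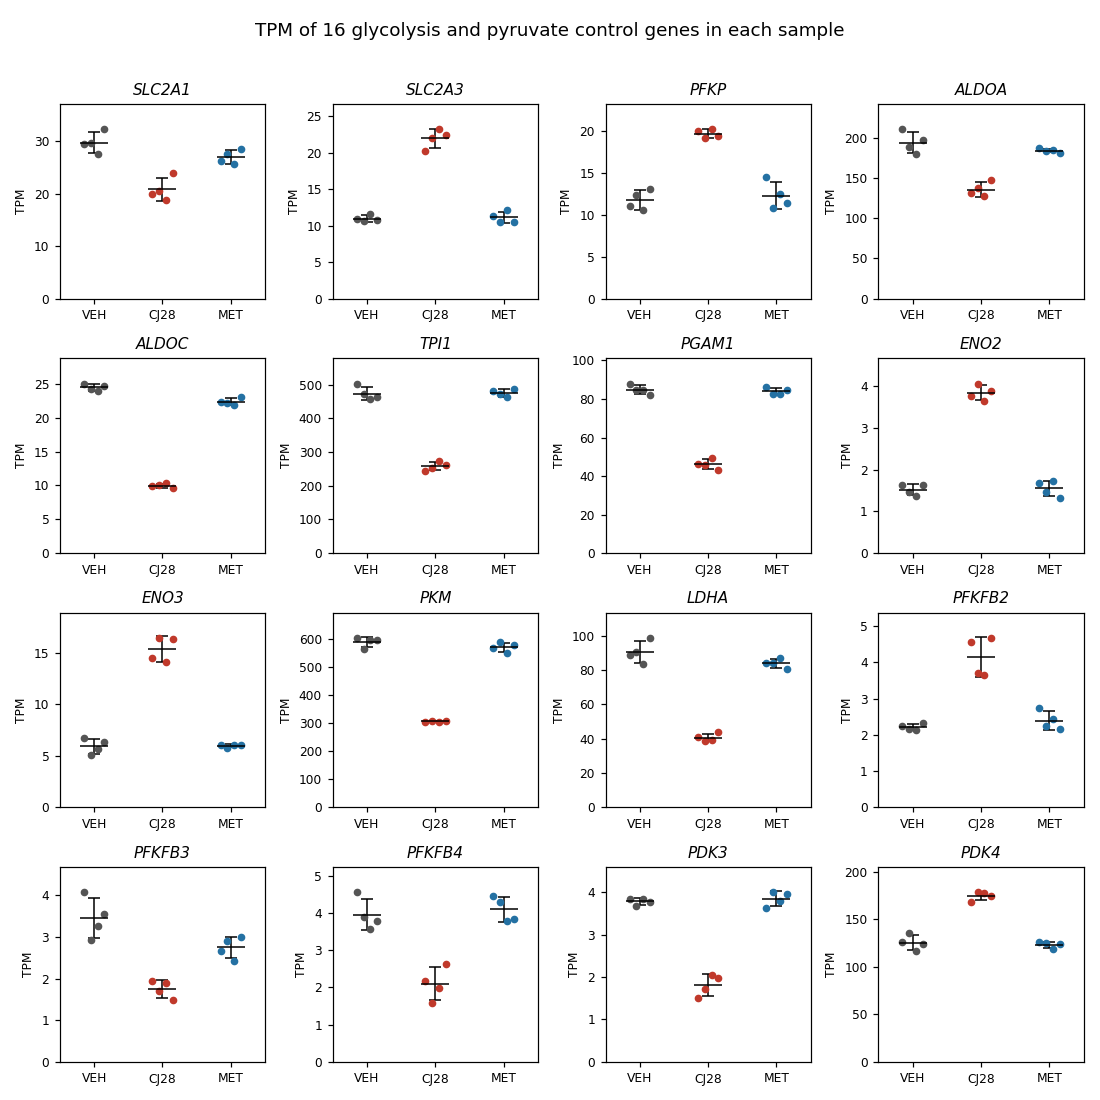
TPM on linear axes from 0 for 16 members in each of the 12 samples, with a point per sample and bars for the mean ± SD of 4 samples in VEH (grey), CJ28 (red) and MET (blue). The panels were picked as the members called for CJ28 against VEH with a log2 fold change of at least 0.5 in size, with PDK4 added. In all 16 panels the CJ28 points lie apart from the VEH points, lower in 10 genes such as PKM and LDHA and higher in 6 such as SLC2A3 and ENO3.

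At the lactate step, LDHA fell under every scaling, and the call of LDHB depended on the scale. LDHA (ENSG00000134333.14, chromosome 11, 18394560 to 18408425), the form that favours making lactate, stood at 88.5, 90.4, 83.4 and 98.6 TPM in VEH, 40.8, 38.6, 39.5 and 43.7 in CJ28 and 83.9, 83.8, 86.9 and 80.8 in MET. CJ28 samples were all far below the others, and MET and VEH overlapped. It fell by 54.9%, with a log2 fold change of -1.147 ± 0.052 (-1.01 relative to the median gene, limma adjusted p = 1.77e-09). LDHB, the form that favours making pyruvate, had 695 ± 12.95 TPM with VEH, 643 ± 14.3 TPM with CJ28 and 694 ± 18.2 TPM with MET (SD, n = 4), the second highest level of the members. Its log2 fold change of -0.11 ± 0.028 passed the test (limma adjusted p = 0.00394) but was 0.04 after median-of-ratios scaling (limma adjusted p = 0.362), so a fall of LDHB rests on the scale. Of lactate dehydrogenase TPM, LDHA made up 11.5, 11.3, 10.7 and 12.5% in VEH, 5.995, 5.66, 5.63 and 6.51% in CJ28 and 10.7, 10.5, 11.3 and 10.7% in MET. No CJ28 sample overlapped another group, and LDHB over LDHA was 7.74 ± 0.55 in VEH, 15.9 ± 1.12 in CJ28 and 8.28 ± 0.29 in MET (SD, n = 4), a ratio that the scale of a sample does not touch. SLC16A1, the lactate transporter MCT1, fell from 18.2 ± 0.673 to 13.9 ± 0.139 TPM (-0.39 ± 0.035, limma adjusted p = 1.09e-06), while SLC16A3, the exporter MCT4, stayed at or below 0.25 TPM in all 12 samples.

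The enzymes that set fructose 2,6-bisphosphate moved in both directions. PFKFB2 (ENSG00000123836.15, chromosome 1, 207034366 to 207081024), the heart form, whose kinase is switched on by phosphorylation, stood at 2.25, 2.17, 2.12 and 2.33 TPM in VEH, 4.56, 3.71, 3.64 and 4.67 in CJ28 and 2.74, 2.23, 2.44 and 2.16 in MET. Each CJ28 sample was above all others, with a wider spread than in VEH. It rose by 86.9% in mean TPM (log2 fold change 0.87 ± 0.10, 1.00 relative to the median gene, limma adjusted p = 1.00e-05). PFKFB3 (ENSG00000170525.21, chromosome 10, 6144934 to 6254644), an inducible form with a strong kinase, stood at 4.07, 2.93, 3.26 and 3.54 TPM in VEH, 1.93, 1.69, 1.89 and 1.48 in CJ28 and 2.66, 2.90, 2.43 and 2.99 in MET. CJ28 was the lowest group without overlap. MET and VEH overlapped only in that MET-4, at 2.99, was above VEH-2, at 2.93. It fell by 49.3% (log2 fold change -0.94 ± 0.11, -0.81 relative to the median gene, limma adjusted p = 1.56e-05). PFKFB4 (ENSG00000114268.12, chromosome 3, 48517684 to 48562015), another inducible form, stood at 4.56, 3.90, 3.58 and 3.79 TPM in VEH, 2.18, 1.58, 1.99 and 2.64 in CJ28 and 4.47, 4.31, 3.80 and 3.83 in MET. Here too all CJ28 samples were below all others. PFKFB4 fell by 47.0% (-0.90 ± 0.13 on the log2 scale, -0.77 relative to the median gene, limma adjusted p = 7.63e-05).

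Of the summed TPM of PFKFB2, PFKFB3 and PFKFB4, PFKFB2 took 20.7, 24.1, 23.7 and 24.1% in VEH, 52.6, 53.2, 48.4 and 53.1% in CJ28 and 27.8, 23.6, 28.1 and 24.1% in MET. It was the smallest of these 3 shares by mean in VEH and the largest in every CJ28 sample. The share of PFKFB3 was 35.7 ± 2.17% in VEH, 22.1 ± 3.71% in CJ28 and 29.7 ± 2.85% in MET (SD, n = 4). That of PFKFB4 was 41.1 ± 1.87% in VEH, 26.1 ± 3.08% in CJ28 and 44.4 ± 1.38% in MET. TIGAR, a phosphatase induced by p53 that breaks down fructose 2,6-bisphosphate, had 3.35 ± 0.545 TPM with VEH, 3.23 ± 0.639 TPM with CJ28 and 3.33 ± 0.345 TPM with MET and did not pass the test (log2 fold change -0.06 ± 0.14, limma adjusted p = 0.739). All 4 of these genes stayed below 5 TPM in every sample.

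**Figure D3:**
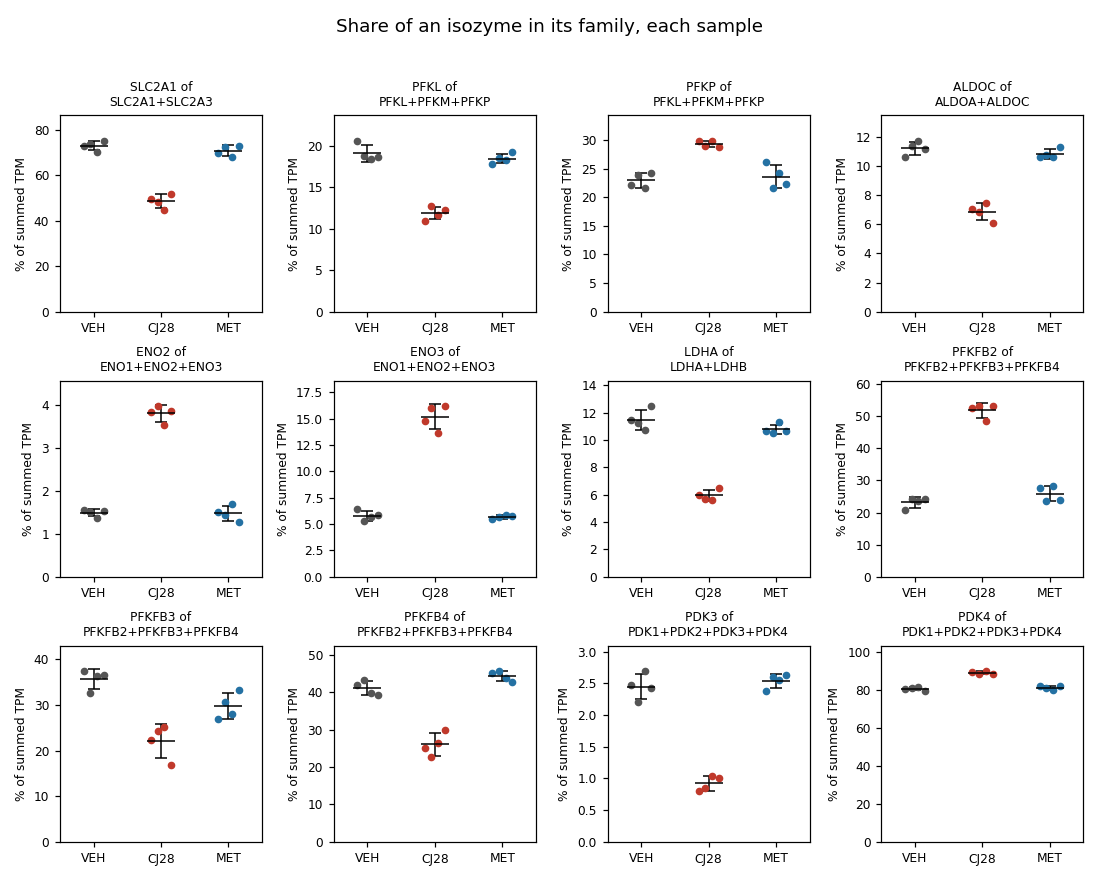
Share of an isozyme in the summed TPM of its family, in percent on linear axes from 0, for 12 shares in each sample, with a point per sample and bars for the mean ± SD of 4 samples in VEH (grey), CJ28 (red) and MET (blue). The shares of HK2, PFKM and SLC16A3, in which CJ28 and VEH overlapped, are not among the panels. CJ28 stands apart from VEH in every panel shown, as for PFKFB2 with a mean of 51.8% against 23.1%, while MET overlaps VEH throughout.

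Pyruvate dehydrogenase and its kinases were split as well. PDK3 (ENSG00000067992.15, chromosome X, 24465221 to 24550466), a kinase that inactivates the complex, stood at 3.85, 3.68, 3.85 and 3.78 TPM in VEH, 1.51, 1.71, 2.05 and 1.98 in CJ28 and 3.63, 4.00, 3.79 and 3.97 in MET. CJ28 samples were all far below the rest. PDK3 fell by 52.2% (log2 fold change -1.03 ± 0.087, -0.90 relative to the median gene, limma adjusted p = 5.74e-07). PDK4, the kinase induced by fasting and the most abundant of the 4 here, stood at 125, 136, 117 and 124 TPM in VEH, 168, 178, 177 and 174 in CJ28 and 126, 125, 118 and 124 in MET. All CJ28 samples were higher than all VEH and MET samples, and PDK4 rose from 125 ± 7.86 to 174 ± 4.50 TPM (0.48 ± 0.042, limma adjusted p = 8.52e-07). It was the only 1 of the 11 members above 50 TPM in VEH to rise, the other 10 being called lower, 8 of them also after median-of-ratios scaling. Over protein-coding genes alone GPI and ENO1 were not called lower and LDHB had no value. PDHA1, just under 50 TPM in VEH at 48.7, rose as well. PDK1, a target of hypoxia-inducible factors, fell from 11.2 ± 1.92 to 8.16 ± 1.45 TPM and PDK2 from 15.02 ± 1.90 to 11.7 ± 0.895 TPM, and in both the samples overlapped with VEH. Their log2 fold changes were -0.46 ± 0.14 and -0.36 ± 0.081 (limma adjusted p = 0.0147 and 0.00227). The fall of PDK1 did not pass under either other scaling (-0.31 and -0.26), nor that of PDK2 over protein-coding genes alone (-0.15).

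Of the E1 subunits of the complex, PDHA1, whose serines the kinases phosphorylate, rose from 48.7 ± 1.88 to 55.3 ± 3.15 TPM (0.18 ± 0.047, limma adjusted p = 0.00522), and PDHB fell from 35.3 ± 0.529 to 27.8 ± 1.27 TPM (-0.34 ± 0.035, limma adjusted p = 3.71e-06). Of their sum, PDHA1 made up 58.0 ± 0.847% in VEH and 66.5 ± 0.718% in CJ28. Among the kinases, the share of PDK4 was 80.7 ± 0.858% in VEH, 89.0 ± 0.781% in CJ28 and 81.1 ± 1.08% in MET (SD, n = 4). That of PDK3 was 2.45 ± 0.202% in VEH, 0.924 ± 0.116% in CJ28 and 2.54 ± 0.113% in MET. CJ28 did not overlap VEH in these 3 shares. PDK4 over PDK3 was 33.1 ± 2.74 in VEH, 97.5 ± 12.3 in CJ28 and 32.04 ± 1.70 in MET.

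Across the 18 shares, CJ28 and VEH did not overlap in 15, the exceptions being HK2, PFKM and SLC16A3, and MET and VEH overlapped in all 18. The 18 and the 15 include PDHA1 of the E1 subunits, which are not isozymes of each other. For single genes, 50.3% of all genes did not overlap between CJ28 and VEH, and 2.81% between MET and VEH. Shares of the same family depend on each other, so the 15 are not separate results. In the exact two-sided permutation test each of the 15 had p = 0.0286, the smallest that 4 against 4 samples allow. Adjusted over the 36 tests made, that became 0.0686, so no share could pass 0.05. For MET the smallest adjusted p of the exact permutation test was 0.121, for PFKFB3 and PFKFB4. The summed TPM of all 32 members was 3911 to 4052 in VEH, 3017 to 3099 in CJ28 and 3851 to 3985 in MET, with CJ28 below the rest. As a share of nuclear protein-coding TPM, the members other than LDHB held 1.31 to 1.39% in VEH, 1.11 to 1.145% in CJ28 and 1.32 to 1.35% in MET.

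MET did not move any member past the threshold. None of the 31 members passed for MET against VEH in limma, where 0.00595% of all genes did (1 gene). Their median log2 fold change was -0.01, beside -0.03 for all genes, and their range was -0.31 to 0.10. An unadjusted p under 0.05 was met by 2 of 31, ALDOC and PFKFB3, against 5.20% of all genes. ALDOC had a log2 fold change of -0.13 ± 0.035 (unadjusted p = 0.00255, limma adjusted p = 0.889), and its MET samples did not overlap VEH, as for 2.81% of all genes. PFKFB3 had -0.31 ± 0.11 (unadjusted p = 0.0170, limma adjusted p = 0.933), and LDHA, the third by p, had -0.10 ± 0.052 (limma adjusted p = 0.933).

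CJ28 and MET were compared directly at the same dose of 30 µM and the same time. Of the 31 members, 27 differed, 20 lower and 7 higher in CJ28, where 55.5% of all genes differed (34.6% lower and 20.9% higher). PDHA1 was called against VEH but not against MET, where its log2 fold change was 0.09 ± 0.047 (limma adjusted p = 0.122), and MET-1 lay above the rest of its group. That missing call depends on the scale: PDHA1 passed at 0.21 after median-of-ratios scaling (limma adjusted p = 0.00462) and at 0.28 over protein-coding genes alone (limma adjusted p = 7.55e-05). The calls of PDK1, PDK2 and GPI against MET were lost under both of those scalings, and HK1 was called higher under both. On the log2 scale, CJ28 against MET, ALDOC differed by -1.16 ± 0.035 (limma adjusted p = 4.49e-11), LDHA by -1.04 ± 0.052 (limma adjusted p = 4.24e-09), ENO3 by 1.34 ± 0.082 (limma adjusted p = 2.88e-08) and PFKFB3 by -0.63 ± 0.11 (limma adjusted p = 4.74e-04). This comparison shares the CJ28 samples with the comparison against VEH, and both comparisons against VEH share the VEH samples, so the counts are not separate evidence.

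Beyond the 32 genes, 65 others of the pathway and its surroundings were listed, of which 47 were expressed above the filter. Of these 47, 12 rose and 20 fell in CJ28 and 15 did not pass, where 19.9% of all genes were called higher and 37.1% lower, with a median log2 fold change of -0.15 beside -0.13 for all genes. Over protein-coding genes alone the split turned to 19 higher and 12 lower, as did that of all genes, with 4907 higher and 3294 lower of 12506. Among 12 other isozymes and transporters, 3 rose and 4 fell. SLC2A8, an intracellular glucose transporter, rose (1.00 ± 0.049, limma adjusted p = 3.75e-09), SLC2A4, the insulin-responsive GLUT4, rose by less (0.48 ± 0.065, limma adjusted p = 4.26e-05), and SLC2A6, a lysosomal transporter, fell (-1.06 ± 0.13, limma adjusted p = 1.51e-05). LDHD, which oxidises D-lactate, passed narrowly at under 1 TPM (0.58 ± 0.23, limma adjusted p = 0.0496). It passed the filter only through CJ28 and MET samples, which had a part in its direction.

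Of 8 genes for pyruvate entry and the rest of the dehydrogenase complex, 2 rose and 4 fell. Over all genes, 19.9% were called higher and 37.1% lower. The mitochondrial pyruvate carrier needs both of its subunits, and these moved apart, MPC1 rising from 14.2 ± 0.354 to 16.1 ± 0.954 TPM (0.18 ± 0.044, limma adjusted p = 0.00322) and MPC2 falling from 11.1 ± 0.779 to 7.46 ± 0.304 TPM (-0.56 ± 0.053, limma adjusted p = 1.70e-06). The phosphatases that switch the complex back on also parted, PDP1 rising (0.50 ± 0.056, limma adjusted p = 8.51e-06) and PDP2 falling (-0.54 ± 0.12, limma adjusted p = 0.00271). DLAT, the E2 core, fell (-0.25 ± 0.045), a call that neither other scaling kept (-0.10 and -0.04). In gluconeogenesis 1 of 4 rose and 2 fell. PCK2, the mitochondrial enzyme that makes phosphoenolpyruvate, rose from 4.54 ± 0.386 to 18.6 ± 0.736 TPM (2.02 ± 0.069, limma adjusted p = 1.40e-10), while SLC37A4 (-0.56 ± 0.066) and G6PC3 (-0.41 ± 0.062), which carry and cleave glucose 6-phosphate in the endoplasmic reticulum, fell. In the pentose phosphate pathway 1 of 7 rose, RPE (0.24 ± 0.063), and 3 fell. PGD, which makes NADPH, fell from 23.1 ± 3.78 to 13.5 ± 3.05 TPM (-0.79 ± 0.15, limma adjusted p = 7.37e-04). TKT (-0.26 ± 0.045) and TALDO1 (-0.28 ± 0.059) fell as deposited, but neither passed over protein-coding genes alone (-0.05 and -0.07).

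Of 16 regulators, 5 rose and 7 fell, where 19.9% of all genes were called higher and 37.1% lower. TXNIP, which restrains glucose uptake, fell from 30.2 ± 1.05 to 12.96 ± 1.21 TPM (-1.22 ± 0.058, limma adjusted p = 2.83e-09), and ARRDC4, a related arrestin that like TXNIP is a target of MondoA and ChREBP, fell from 5.15 ± 0.234 to 2.30 ± 0.142 TPM (-1.13 ± 0.059, limma adjusted p = 7.05e-09). MLXIPL, which encodes ChREBP, fell at under 1 TPM (-0.82 ± 0.21, limma adjusted p = 0.00552). It passed the filter only through VEH and MET samples, which had a part in its direction. PPARGC1A, a coactivator of mitochondrial genes, rose from 1.35 ± 0.119 to 3.64 ± 0.428 TPM (1.36 ± 0.14, limma adjusted p = 3.80e-06). HIF1A mRNA rose by 0.073 ± 0.03 on the log2 scale (limma adjusted p = 0.0384), and MYC did not pass (-0.17 ± 0.088, limma adjusted p = 0.114). The size of the HIF1A change depended on the scale, at 0.23 after median-of-ratios scaling and 0.28 over protein-coding genes alone. As HIF1A acts mainly through protein stability, its mRNA does not measure its activity.

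Targets of hypoxia-inducible factors outside glycolysis were called in both directions in TPM, a split that depended on the scale. Of 22 listed, 16 were expressed above the filter, 6 rose and 4 fell (19.9% and 37.1% over all genes), with a median log2 fold change of 0.09. DDIT4, an inhibitor of mTORC1, rose (1.00 ± 0.14, limma adjusted p = 4.31e-05), as did P4HA2 of collagen hydroxylation (0.99 ± 0.17, limma adjusted p = 2.83e-04), MXI1, a MYC antagonist (0.84 ± 0.092, limma adjusted p = 6.38e-06) and the growth factor VEGFA (0.54 ± 0.053, limma adjusted p = 2.41e-06). The 4 that fell were BNIP3L (-0.52 ± 0.077), INSIG2 (-0.36 ± 0.11), ERO1A (-0.29 ± 0.061) and BNIP3 (-0.18 ± 0.048). After median-of-ratios scaling 7 targets were higher and 1 lower, where 4925 of all genes were higher and 4430 lower. Over protein-coding genes alone 9 of 15 were higher and 1 lower, where 4907 of 12506 genes were higher and 3294 lower. BNIP3L was the 1 lower target under both. VEGFA, filed like LDHB as a polymorphic pseudogene, drops out of the protein-coding setting. None of the 47 pathway genes or the 16 targets passed for MET against VEH in limma, where 3 and 0 had an unadjusted p under 0.05.

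**Figure D4:**
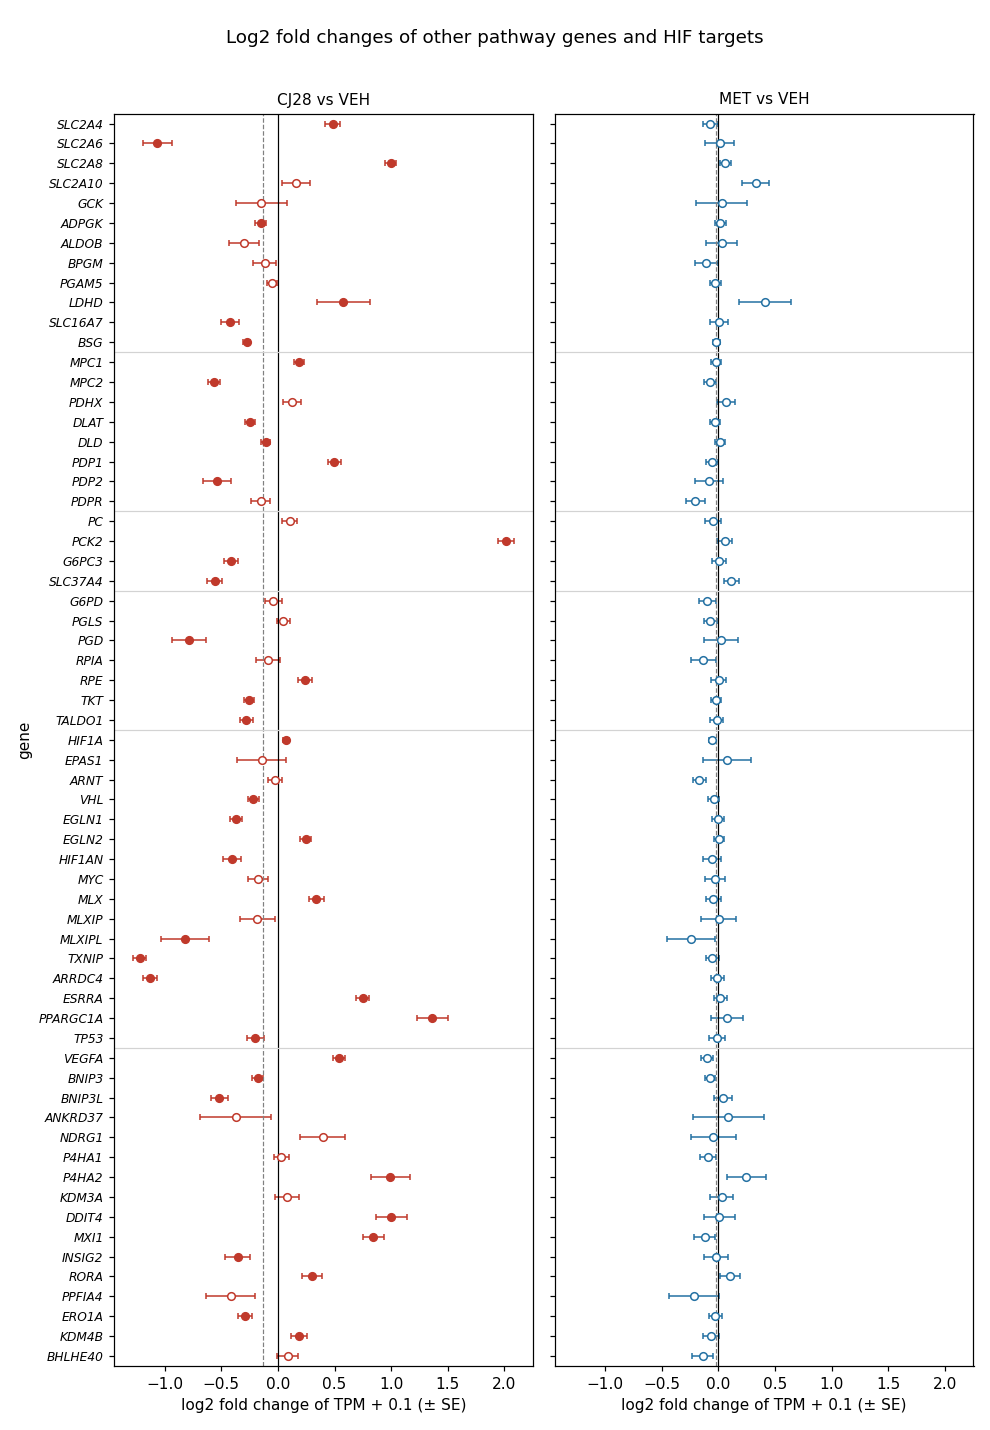
Log2 fold change of TPM + 0.1 with its standard error for 47 other pathway genes and 16 targets of hypoxia-inducible factors, CJ28 against VEH on the left and MET against VEH on the right, with grey lines between groups. Filled points passed an adjusted p under 0.05 in limma and open points did not, and the dashed line is the median of all genes. PCK2 at 2.02 and TXNIP at -1.22 mark the ends in CJ28, and every MET point is open.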

How the data were processed

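Per the study's methods and the submitters' processing notes, total RNA was depleted of ribosomal RNA, made into stranded paired-end libraries, trimmed with Cutadapt (version 2.8), aligned to GRCh38 with STAR (version 2.7.10b) and quantified with RSEM (version 1.3.3). The authors deposited a table of TPM with 2 decimals for 12 samples, which keeps no read number. Because RSEM shares reads out between similar sequences, SLC2A3 and members with pseudogenes are uncertain. No sample was left out, and groups and replicate numbers came from the labels.

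Genes reaching 0.5 TPM in 4 or more samples were kept, 16815 in all. On the log2 scale, after 0.1 was added to each TPM, limma 3.58.1 in R 4.3.3 fitted group means across all 12 samples, with no covariate and with the trend option of eBayes. Two-sided p-values were adjusted over every gene tested (Benjamini-Hochberg). No count model was fitted. Isozyme shares, with that of PDHA1 among the E1 subunits counted in, were compared by exact permutation tests (Python version 3.11.15, scipy version 1.17.1). Both procedures were tested on simulated data. Motifs were searched on both strands of RefSeq promoter windows, and coordinates are those of the table, 26 of 32 identical to GENCODE version 44.

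The members and lists were chosen with earlier results of these data known. All 32 members are named, with full values where the adjusted p was under 0.05 and the change between CJ28 and VEH at least 0.5 in size on the log2 scale. Of the other pathway genes and the targets of hypoxia-inducible factors, the 4 called genes with the largest change per group are named, with HIF1A, MYC, TXNIP and MPC1. The targets that fell are named as well. For MET the 3 members with the smallest p are named. Alternatives were pseudocounts of 1 and 0.01, no filter, a filter at 1 TPM on the mean, scaling by median of ratios, nuclear protein-coding genes only, a replicate block, no trend, fits of the compared groups only, added pseudogenes, and leaving out each replicate. Adding SLC2A14 to SLC2A3 was chosen after seeing the data.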

Additional observations from a re-analysis of the deposited data

Results flagged for a closer look

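In 228 groups of 4 samples (members, named pathway genes and isozyme shares), a single sample stood apart from the other 3 of its group in 12, by a gap that chance alone gives in about 1 of 20 groups. Among members, these were PFKM in CJ28-2 at 38.65 TPM, ENO3 in MET-2 at 5.79 TPM, TIGAR in MET-3 at 3.84 TPM and PDHA1 in MET-1 at 55.39 TPM. Of these, only PDHA1 took part in a call that changed without its sample. PDHA1 for CJ28 against MET passed without MET-1, at a log2 fold change of 0.12 (limma adjusted p = 0.0468). Among other pathway genes, they were SLC2A4 in CJ28-3 at 3.39 TPM, SLC2A8 in VEH-4 at 9.16 TPM and G6PC3 in CJ28-4 at 19.55 TPM. Among shares, they were PFKL in VEH-1 at 20.6%, PFKM in VEH-3 at 60.0%, PFKFB2 in VEH-1 at 20.7%, PFKFB2 in CJ28-3 at 48.4% and PDHA1 in CJ28-2 at 65.4%. For PFKFB2, the CJ28-3 share stayed above all VEH shares, the highest of which was 24.1%.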

How the results depend on the processing

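The counts of called members, 28 for CJ28 against VEH, 0 for MET against VEH and 27 for CJ28 against MET, stayed within 1.5 times of these values under every alternative tried. Over nuclear protein-coding genes alone, the other pathway genes split into 19 higher and 12 lower in place of 12 and 20, and under that setting and median-of-ratios scaling 1 target of hypoxia-inducible factors was lower in place of 4, with 9 and 7 higher in place of 6. Among members called in TPM, the sign turned for ENO1 against VEH over protein-coding genes (0.00098). It also turned for LDHB after median-of-ratios scaling, against VEH (0.0399) and against MET (0.0119). HK2 and TIGAR, called under no setting, changed sign with the scale against VEH as well. Shares of MET and VEH, PDHA1 of the E1 subunits counted in, overlapped in all 18, and with single samples left out 0 to 3 did not (3 without VEH-2, 2 without MET-4). Equal replicate numbers did not deviate together (mean correlation 0.024 for CJ28 and VEH, -0.024 for MET and VEH). With a replicate block, 28 members and 27 were called in the contrasts with CJ28 and 0 for MET. In pairs set by replicate number alone, 3 isozyme shares of MET lay on 1 side of VEH in every pair. So few pairs can share a direction without any effect, and this count was not tested. PDK1 for CJ28 against MET (-0.41) lost its call with any of 5 single samples left out, at -0.36 without CJ28-1 or CJ28-3, -0.40 without CJ28-4, -0.37 without MET-2 and -0.35 without MET-3, and also without a filter (-0.41), after median-of-ratios scaling (-0.29) and over protein-coding genes (-0.22). In that contrast, median-of-ratios scaling and protein-coding genes alone also ended the calls of PDK2 (-0.14 and -0.07) and GPI (-0.11 and -0.04) and gave calls to HK1 (0.24 and 0.31) and PDHA1 (0.21 and 0.28), and protein-coding genes alone ended those of PFKL (-0.07) and ENO1 (-0.06). Leaving out CJ28-3 likewise ended the call of PDK2 (-0.22) and gave one to HK1 (0.18), and leaving out MET-1 gave one to PDHA1 (0.12). The same scalings changed calls of HK1, GPI, PFKL, ENO1, LDHB, PDK1 and PDK2 against VEH, as given with these genes. The study lists the reads of each library, but the deposited TPM hold no read number per gene, so the precision of genes near 1 TPM was not estimated.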
